A study of Mus musculus with 8 samples.

Results

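The gene set described here is every gene of the deposited table whose symbol starts with Rab directly followed by a digit. It holds 57 of the 16349 genes in the table: 45 Rab GTPases, 9 Rab-named regulators and effectors, and 3 RNAs from the strand opposite a Rab-named gene. RNA was sequenced from mouse spermatids in 8 libraries, 2 for each combination of stage and genotype label. Round spermatids are haploid germ cells before the nucleus is reshaped, and elongating spermatids are the later cells with a condensing nucleus and a growing tail. The groups were round WT, round KO-labelled, elongating WT and elongating KO-labelled, where the KO label stands for a conditional knockout (cKO) of Carm1, a gene for an arginine methyltransferase that works as a transcriptional coactivator. All groups were of the C57BL/6 strain and untreated, and the cells of each sample were purified from 8 testes by centrifugal elutriation, so each library is a pool of what that sedimentation fraction held. For the Cre driver, the deleted part of the gene and the age of the mice the sources used here give nothing. No label states whether both libraries of a group came from separate mice. Each p-value therefore reflects library-to-library spread alone, which may be technical.

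Rab proteins are small GTPases that mark the membranes of the secretory and endocytic pathways. They switch between a GTP-bound form, which sits on a membrane through its prenyl tail and recruits effectors, and a GDP-bound form that a GDI chaperone holds in the cytosol. Guanine nucleotide exchange factors (GEFs) switch them on and GTPase-activating proteins (GAPs) switch them off. In spermatids, vesicles from the Golgi build the acrosome, cargo moves along the microtubules of the manchette, and a specialised cilium grows into the tail, so Rabs of the Golgi, of endosomes and lysosomes, of regulated secretion and of the cilium all have known places to act.

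Each library held between 17190962 and 23526694 recovered reads. The deposited values are normalised read counts: whole reads divided by a size factor, which was 1.57 to 1.77 in round and 0.516 to 0.776 in elongating libraries. The 50 most abundant genes took 10.1% to 10.3% of reads in round and 31.9% to 34.9% in elongating libraries, so the scaling matters here. As deposited, the median log2 difference over all 15685 tested genes was 0.03 and -0.07 for KO-labelled against WT in round and elongating cells, and 0.01 for elongating against round cells in each genotype. With scaling to total reads the same medians were -0.06 and -0.61, and -1.42 in WT and -1.87 in KO-labelled cells. Every direction below is therefore relative to the typical gene of the deposited table. For the named members, called directions that turn with total-read scaling are given beside the gene or in the closing section. Carm1 itself fell from 1668 ± 26.2 to 1259 ± 119 normalised counts (mean ± SD, n = 2) in round cells (log2 difference -0.41, SE 0.05, adjusted p = 3.8e-05), but rose from 4421 ± 159 to 8075 ± 116 in elongating cells (log2 difference 0.87, SE 0.05, adjusted p = 2.7e-09), where it goes against its label. The term KO-labelled is used for that reason. Elongating spermatid markers (7 of 7 in the table, among them Prm1, Tnp1 and Odf1) took 1.23 to 1.27% of reads in round WT and 9.27 to 9.31% in elongating WT libraries, and all 7 rose between them. Round spermatid markers (5 of 5) took 0.2 to 0.202% and 0.286 to 0.29%, but 2 rose and 3 fell, with a median log2 difference of -0.83. Markers of other cells moved as well. Macrophage and leukocyte markers (11 of 11) summed to 136 to 167 normalised counts in WT and 215 to 225 in KO-labelled round cells. In elongating cells the sums were 11468 to 11494 for WT and 4956 to 5029 for KO-labelled libraries. Sertoli cell markers (12 of 13, without Amh) summed to 554 to 557, 345 to 348, 8488 to 8524 and 5780.0 to 5845 in that order, with Fshr at 0 in round KO-labelled libraries. Peritubular and vascular markers (10 of 10) summed to 355 to 388, 497 to 510.5, 2663 to 2736 and 4530.1 to 4536. Spermatocyte markers (9 of 9) took 0.113 to 0.116% of reads in round WT and 0.0121 to 0.0122% in elongating WT libraries. In such bulk fractions, fewer cells of a type and less RNA per cell cannot be told apart.

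Per kilobase of exon, the highest levels belonged to regulators and effectors and not to GTPases. Rab11fip5, an effector of Rab11, stood at 984 normalised counts per kb in round WT and 2922 in elongating WT cells. Rab3il1, an exchange factor for Rab8, stood at 672 and 3145, and Rab3ip (Rabin8), another Rab8 exchange factor, at 528 and 923. The 2 highest of these, Rab3il1 and Rab11fip5, supplied 43.3% of all Rab-set reads in both round WT libraries and 65.4% and 65.7% in the elongating WT libraries. Among the GTPases, the round WT order per kb was Rab1b (481), Rab5c (295), Rab2a (241), Rab11a (195) and Rab6a (166). In elongating WT cells it was Rab28 (836), Rab5c (794), Rab22a (353), Rab7 (316) and Rab1b (229). The leading GTPases thus passed from an ER to Golgi Rab to a ciliary Rab and Rabs of the endosome. The 45 GTPases together took 0.0927% to 0.0939% of reads in round WT and 0.0519% to 0.0525% in elongating WT libraries.

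**Figure D1:**
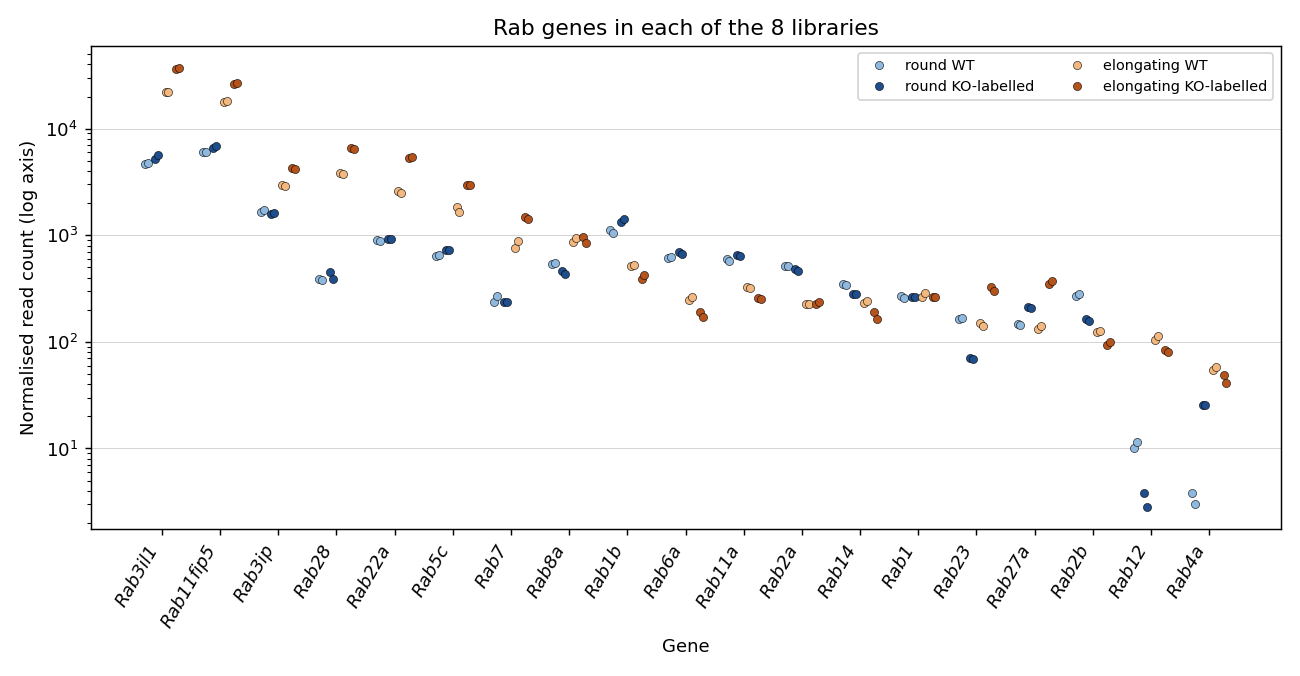
Normalised read count (log axis) of 19 Rab genes in each of the 8 libraries, 1 point per library, coloured by group. Rab3il1 and Rab11fip5 lie above all others, Rab28, Rab22a, Rab5c and Rab7 step up from round to elongating WT cells and again to elongating KO-labelled cells, and Rab1b, Rab6a, Rab11a and Rab2a step down between the stages.

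The study's title names CREM, a factor that binds the cyclic AMP response element, so the promoters of GTPases that led either stage are shown. They are the 250 bases before the RefSeq start site in GRCm38.p6, written 5′ to 3′ on the gene's own strand, with the core TGACG of that element or its reverse complement CGTCA in capitals. The first 4 genes rose between the stages in WT and again in KO-labelled elongating cells, and the last 3 fell in both comparisons.
Rab28, chr5:41708180-41708429, minus strand: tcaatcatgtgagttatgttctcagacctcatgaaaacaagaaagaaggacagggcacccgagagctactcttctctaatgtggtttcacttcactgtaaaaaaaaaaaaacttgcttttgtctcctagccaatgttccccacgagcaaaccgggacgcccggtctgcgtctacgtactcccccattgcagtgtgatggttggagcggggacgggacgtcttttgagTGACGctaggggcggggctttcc
Rab22a, chr2:173659595-173659844, plus strand: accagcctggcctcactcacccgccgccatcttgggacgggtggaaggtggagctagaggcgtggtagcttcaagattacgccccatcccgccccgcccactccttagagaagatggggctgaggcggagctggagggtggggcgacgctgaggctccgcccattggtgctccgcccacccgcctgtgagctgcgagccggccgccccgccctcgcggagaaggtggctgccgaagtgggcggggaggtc
Rab7, chr6:88045271-88045520, minus strand: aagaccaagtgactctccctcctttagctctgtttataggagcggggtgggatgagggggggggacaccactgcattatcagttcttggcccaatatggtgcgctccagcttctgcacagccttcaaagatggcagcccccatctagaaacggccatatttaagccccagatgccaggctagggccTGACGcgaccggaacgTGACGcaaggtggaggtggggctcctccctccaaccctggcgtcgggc
Rab5c, chr11:100738216-100738465, minus strand: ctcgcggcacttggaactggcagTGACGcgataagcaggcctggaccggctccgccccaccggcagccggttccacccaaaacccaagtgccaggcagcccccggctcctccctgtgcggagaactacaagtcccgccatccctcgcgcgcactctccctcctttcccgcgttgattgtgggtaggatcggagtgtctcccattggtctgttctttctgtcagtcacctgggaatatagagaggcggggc
Rab6a, chr7:100607336-100607585, plus strand: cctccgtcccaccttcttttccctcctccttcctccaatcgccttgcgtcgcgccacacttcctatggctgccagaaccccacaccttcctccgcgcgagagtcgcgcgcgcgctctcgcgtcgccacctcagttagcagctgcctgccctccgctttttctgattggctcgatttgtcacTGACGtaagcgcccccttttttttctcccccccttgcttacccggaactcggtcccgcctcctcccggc
Rab11a, chr9:64737757-64738006, minus strand: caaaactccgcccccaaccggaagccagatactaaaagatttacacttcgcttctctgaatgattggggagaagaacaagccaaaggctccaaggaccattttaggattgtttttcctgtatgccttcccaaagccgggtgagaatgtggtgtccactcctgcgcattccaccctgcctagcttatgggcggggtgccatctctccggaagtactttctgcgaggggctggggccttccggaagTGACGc
Rab1b, chr19:5106997-5107246, minus strand: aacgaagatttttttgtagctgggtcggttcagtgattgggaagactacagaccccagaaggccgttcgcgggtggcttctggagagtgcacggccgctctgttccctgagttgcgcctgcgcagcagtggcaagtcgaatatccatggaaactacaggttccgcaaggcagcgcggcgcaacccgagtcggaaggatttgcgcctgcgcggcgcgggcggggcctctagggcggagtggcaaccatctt
The core occurred in both directions of change: Rab28, Rab5c and Rab7 held it among the genes that rose, Rab6a and Rab11a among those that fell, and Rab22a and Rab1b had none in this window. Rab7 has another RefSeq start downstream, and the core was not in its window. Searching both strands of the 300-base promoters, which add 50 bases after the start, the core TGACG was found for 29 of 48 Rab genes with a promoter in the RefSeq table, or 60.4%, against 31.9% of 12382 genes of the deposited table and 23% of 27025 genes in all. The palindrome TGACGTCA, each copy of which also holds the core, was found for 2 of 48 Rab genes (4.17%), Rab5a and Rab11fip3, against 3.3% and 2.03%. These matches are letters in a window and describe no binding.

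From round to elongating WT cells, Rab28, Rab22a, Rab7 and the Rab8 exchange factors rose. Of the 10 ER and Golgi GTPases, Rab1b, Rab2a, Rab2b, Rab6a and Rab33b fell, 4 rose and Rab1 was not called. Over all genes tested, 81.9% changed between the stages in WT cells (41.7% rose and 40.2% fell), called by limma at an adjusted p under 0.05. Of the 54 Rab genes tested, 43 changed, or 79.6%, close to that background: 26 rose and 17 fell, with a median log2 difference of 0.39 against 0.01 for all genes. In KO-labelled cells 84.3% of all genes changed (42.6% rose and 41.8% fell), and 50 of 54 Rab genes did: 30 rose and 20 fell, with a median of 0.68. With total-read scaling the WT split was 12 risen and 34 fallen, beside 19.6% and 68.8% of all genes, and the KO-labelled split 9 and 37, beside 16.7% and 72.8%.

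The ER and Golgi group held 10 GTPases, of which 4 rose and 5 fell in WT. This and each WT group count below stand beside 41.7% risen and 40.2% fallen over all genes. Rab6a, which drives transport within and back from the Golgi, read 606 and 631 normalised counts in the round WT libraries and 249 and 261 in the elongating WT libraries (log2 difference -1.28, SE 0.08, adjusted p = 8.2e-10). Both elongating libraries lay below both round ones, which the rule for naming the largest falls required. Its exons share 19% of their length with Mrpl48, and no source used here gives the strand of counting. Rab1b, needed for traffic from the ER to the Golgi, went from 1127 and 1058 to 512 and 528 (log2 difference -1.07, SE 0.06, adjusted p = 4.6e-10), while its paralogue Rab1 (Rab1a) read 268 and 257 in round against 263 and 289.8 in elongating WT cells (log2 difference 0.07, SE 0.09, adjusted p = 0.43), overlapping groups that did not pass the test. Rab2a, which works between the ER and the Golgi and on acrosome-bound vesicles, went from 516 and 514 to 227 and 228 (log2 difference -1.18, SE 0.07, adjusted p = 9e-10). Its paralogue Rab2b went from 269.8 and 283 to 124 and 125 (log2 difference -1.14, SE 0.11, adjusted p = 1.4e-07). Rab33b, a Golgi GTPase that also acts in autophagy, went from 110.1 and 100.5 to 47.7 and 41.8 (log2 difference -1.22, SE 0.17, adjusted p = 9.3e-06). These 4 changed genes and Rab6a fell by similar amounts, from 1.07 to 1.28 on the log2 scale. The 4 that rose were Rab6b, Rab18, Rab30 and Rab43, by 0.70 to 1.35 on the log2 scale, and none of them rose with total-read scaling. Rab6b went from 28 and 32.1 to 55.4 and 51.9 (log2 difference 0.82, SE 0.22, adjusted p = 0.0033) as deposited and stood at -0.61 on the log2 scale with total-read scaling.

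Among the early endosome GTPases, 4 of 11 rose and 4 fell in WT. Rab22a, which works on early and recycling endosomes, read 895 and 887 in the round WT libraries and 2595 and 2489 in the elongating WT libraries (log2 difference 1.51, SE 0.04, adjusted p = 3.3e-14). The groups were far apart as deposited, but with total-read scaling the log2 difference was 0.05 (adjusted p = 0.33). Rab5c, a GTPase of early endosome fusion, went from 638 and 656 to 1832 and 1653 (log2 difference 1.43, SE 0.05, adjusted p = 1.4e-12), and its log2 difference turned to -0.04 with total-read scaling. The other Rab5 genes went the other way. Rab5b went from 482 and 521 to 244 and 228 (log2 difference -1.08, SE 0.08, adjusted p = 5.6e-09). Rab5a, at a lower level, went from 94.8 and 97.5 to 65.7 and 64.9 (log2 difference -0.55, SE 0.16, adjusted p = 0.0059). Rab4a, which returns cargo quickly from early endosomes, read 3.82 and 3.03 in round WT and 54.1 and 57.7 in elongating WT cells (log2 difference 3.69, SE 0.27, adjusted p = 6e-09), the largest rise of this group and one that held under both scalings. Rab31, of the trans-Golgi network and endosomes, went from 222 and 213 to 529 and 565 (log2 difference 1.33, SE 0.08, adjusted p = 4.1e-10), and stood at -0.14 with total-read scaling. Rab14, which acts between the Golgi and endosomes, went from 346 and 341 to 229 and 244 (log2 difference -0.54, SE 0.10, adjusted p = 0.0001). Rab21, an endosomal GTPase known for integrin traffic, went from 148 and 129 to 55.4 and 60.6 (log2 difference -1.24, SE 0.17, adjusted p = 6.4e-06).

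Of the 5 late endosome and lysosome GTPases, 2 rose and 1 fell in WT. Rab7, the GTPase of late endosomes and lysosomes, read 238 and 267 in round WT and 767 and 883 in elongating WT cells (log2 difference 1.70, SE 0.08, adjusted p = 2.1e-11), and still rose with total-read scaling (0.24). Rab7b, a related GTPase of late endosomes, had no read in either round WT library and 42.5 and 47.6 normalised counts in the elongating WT libraries. With the 0 reads set to a floor of 3 over the group, it was 48.3-fold higher in elongating WT cells. For the reads as counted, the 95% interval starts at 38.2-fold and covers counting error only. Rab7b is also known from macrophages, whose markers rose 11 of 11 over the same comparison, and their part in the result was not tested. Rab9, which returns cargo from late endosomes to the Golgi, read 53.4 and 59.9 in round against 46.4 and 47.6 in elongating WT cells (log2 difference -0.26, SE 0.30, adjusted p = 0.42). Rab42 read 61.1 and 52.7 in round against 46.4 and 47.6 in elongating WT cells (log2 difference -0.27, SE 0.21, adjusted p = 0.25). The remaining member, Rab36, fell.

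Of the 7 tested recycling and plasma membrane GTPases, 3 rose and 3 fell in WT. With total-read scaling 1 rose and 6 fell. Rab35 and Rab40c, which rose as deposited, then stood at -1.07 and -0.54 on the log2 scale. Rab12, which sends transferrin receptor to degradation, read 10.2 and 11.5 in round WT and 104 and 112 in elongating WT cells (log2 difference 3.21, SE 0.26, adjusted p = 2.1e-08), a rise that held under both scalings. Rab11a, the main GTPase of recycling endosomes, went from 599 and 568 to 330.0 and 322 (log2 difference -0.84, SE 0.07, adjusted p = 2.2e-08). Rab10, known for delivery to the plasma membrane, went from 496 and 516 to 393 and 369 (log2 difference -0.41, SE 0.08, adjusted p = 0.00036). Rab12 thus moved against the 2 more abundant GTPases of its group.

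Of the 5 tested GTPases of regulated secretion, 4 rose between the stages in WT cells and 5 in KO-labelled cells. With total-read scaling 3 rose and 1 fell in WT, and in KO-labelled cells 1 rose and 2 fell, Rab27a (-1.16) and Rab3d (-0.43). Rab26, a secretory granule GTPase too low to be tested, went from 20 reads in round WT to 0 in elongating WT libraries, a ratio of at most 0.444 after scaling (upper end of the 95% interval, counting error only). The Rab3 genes, whose products dock secretory vesicles and act in the exocytosis of the acrosome, were low in round cells. Rab3a read 4.45 and 3.63 in round WT and 32.2 and 28.8 in elongating WT cells (log2 difference 2.65, SE 0.44, adjusted p = 5e-05). Rab3b read 7 and 3.63 in round against 50.3 and 49 in elongating WT cells (log2 difference 3.06, SE 0.40, adjusted p = 4.4e-06). Rab3c read 8.91 and 9.68 in round against 20.6 and 33.2 in elongating WT cells (log2 difference 1.40, SE 0.31, adjusted p = 0.00075), and its rise did not hold with total-read scaling (0.03, adjusted p = 0.94). Rab3d, the most abundant of the 4, read 59.2 and 54.5 in round against 214 and 202 in elongating WT cells (log2 difference 1.85, SE 0.14, adjusted p = 1.2e-08). In all 4 the elongating WT libraries lay above the round WT libraries, which the rule for naming the largest rises required of Rab3a and Rab3b. Rab27a, of lysosome-related organelles, read 146 and 145 in round against 133 and 139.9 in elongating WT cells (log2 difference -0.09, SE 0.10, adjusted p = 0.38) and did not pass in WT. Rab3 genes are also active in neurons and glands, and over the same comparison 11 of 11 macrophage, 12 of 12 Sertoli and 8 of 10 peritubular and vascular markers rose. Their part in these low-level rises was not tested.

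In the cilium group, Rab28 rose the most. Rab28, a divergent GTPase found at the cilium and known from photoreceptor disease, read 391 and 383 in the round WT libraries and 3843 and 3732 in the elongating WT libraries (log2 difference 3.29, SE 0.06, adjusted p = 1.9e-16), and kept 1.82 with total-read scaling. It rose to a mean of 6479.8 ± 134 (SD, n = 2) in elongating KO-labelled cells, the highest level of any GTPase of the set in any group. Rab8a, which carries membrane to the growing cilium, went from 538 and 545 to 857 and 937 (log2 difference 0.73, SE 0.07, adjusted p = 2.1e-07), but stood at -0.74 with total-read scaling. Its paralogue Rab8b went from 269.8 and 257 to 231 and 190.3 (log2 difference -0.33, SE 0.10, adjusted p = 0.0085). That fall was lost without round WT replicate 1 (adjusted p = 0.066) and without elongating WT replicate 2 (adjusted p = 0.11). Rab23, an inhibitor of Hedgehog signalling at the cilium, read 164 and 168 in round against 149.5 and 141 in elongating WT cells (log2 difference -0.19, SE 0.11, adjusted p = 0.13), and Rab34, a GTPase of early cilium formation, read 20.4 and 16.9 in round against 33.5 and 28.8 in elongating WT cells (log2 difference 0.71, SE 0.32, adjusted p = 0.0501). Neither passed the test in WT.

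Among the 9 regulators and effectors, 5 rose and 3 fell in WT. Rab3il1 went from 4707 and 4727 to 22120.0 and 22001 (log2 difference 2.23, SE 0.04, adjusted p = 4.5e-17) and Rab11fip5 from 6044 and 6008 to 17687 and 18105 (log2 difference 1.57, SE 0.03, adjusted p = 5e-16), and both still rose with total-read scaling (0.76 and 0.10). Rab3ip went from 1640.4 and 1715 to 2948 and 2913 (log2 difference 0.80, SE 0.04, adjusted p = 5.8e-11), and stood at -0.66 with total-read scaling. Rab3gap2, the non-catalytic subunit of the Rab3 GAP, fell from 484 and 467 to 153 and 153 (log2 difference -1.63, SE 0.15, adjusted p = 1.2e-07), the largest fall of the set. Its exons share 18.8% of their length with Iars2. Rab11fip2, another Rab11 effector, fell from 793 and 811 to 331 and 379 (log2 difference -1.18, SE 0.07, adjusted p = 7.3e-10). The opposite-strand RNA Rab10os rose from 98 and 107 to 703 and 662 (log2 difference 2.72, SE 0.08, adjusted p = 8.7e-14) while Rab10 fell. The kit does not mark strand and 4.07% of the exon length of Rab10 is shared with Rab10os, so reads there cannot be assigned to either.

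The stage comparison in KO-labelled cells uses other libraries than the one in WT cells. Rab genes that rose in both numbered 25, and 17 fell in both, with 0 called in opposite directions. Over all genes 81.9% were called in WT and 84.3% in KO-labelled cells. The share of all genes called alike in both was not counted, so these counts are not read as particular to Rab genes. Rab28 went from 455 and 392 to 6575 and 6385 in KO-labelled cells (log2 difference 3.94, SE 0.06, adjusted p = 1.4e-17), Rab22a from 920.1 and 931 to 5335 and 5392 (log2 difference 2.53, SE 0.04, adjusted p = 3.8e-17) and Rab7 from 234 and 237 to 1474 and 1406 (log2 difference 2.61, SE 0.08, adjusted p = 7.3e-14). Rab23, not called in WT, went from 71.2 and 68.7 to 324 and 299.7 (log2 difference 2.14, SE 0.11, adjusted p = 5.8e-11), and that stage difference was itself different from the one in WT (log2 difference 2.33, SE 0.16, adjusted p = 3.3e-08). Rab1b fell further than in WT, from 1324 and 1424 to 392 and 426 (log2 difference -1.75, SE 0.06, adjusted p = 7.6e-13), and its stage difference also differed between the genotypes (log2 difference -0.68, SE 0.09, adjusted p = 3e-05). Rab27a went from 213 and 206 to 347 and 371 (log2 difference 0.77, SE 0.10, adjusted p = 2.6e-06) as deposited and stood at -1.16 on the log2 scale with total-read scaling.

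**Figure D2:**
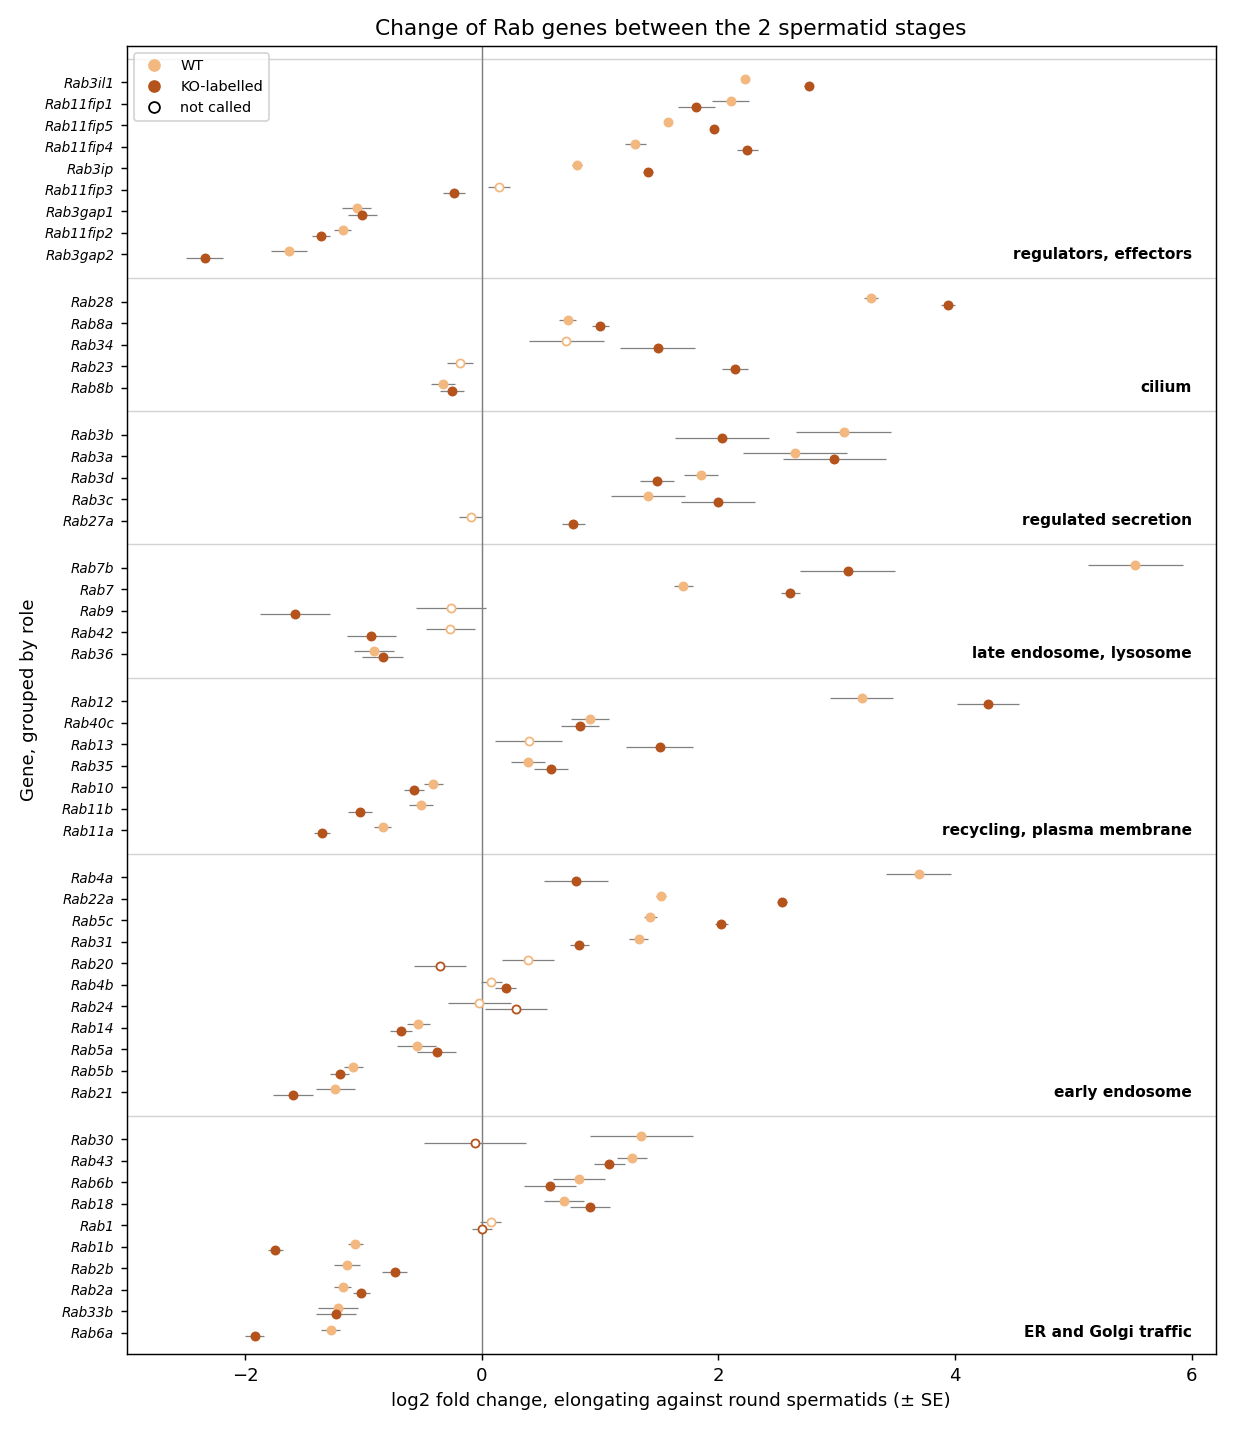
log2 difference (± SE) of elongating against round spermatids for each tested Rab GTPase, regulator and effector, grouped by role, in WT and in KO-labelled cells. Filled points passed an adjusted p under 0.05, and the abundant ER and Golgi members Rab1b, Rab2a and Rab6a lie left of 0 while the Rab3 genes, Rab28, Rab7 and Rab22a lie right of it in both genotypes. The fitted values of Rab7b rest on 0 reads in round WT.

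Shares within a family of close paralogues do not depend on the scaling of the libraries. Rab5c supplied 68.7% and 67.7% of Rab5 reads per kb in round WT, 92.2% and 91.9% in elongating WT cells. In elongating KO-labelled cells its share was 95.6% and 95.7%. Rab5b went from 27.1% and 28.1% to 6.41% and 6.62%, and then to 3.42% and 3.53%. The Rab5 genes thus passed to near single-gene output, while the Rab1 genes did the reverse. Rab1b supplied 87.6% and 87.3% of Rab1 reads per kb in round WT and 76.5% and 75.3% in elongating WT cells. Rab8a went from 66.8% and 68.3% to 79% and 83.3% of the Rab8 pair. Rab6b went from 3.31% and 3.63% to 14.2% and 12.8% of the Rab6 pair. In round cells Rab4a supplied 1.43% and 1.27% of the Rab4 pair for WT against 7.9% and 7.69% for KO-labelled libraries. In elongating cells the shares were 18% and 17% against 12.6% and 10.5%. The share of Rab2b in the Rab2 pair was alike in the 2 stages of WT cells, at 21.1% and 22% against 21.8% and 22%, but lower in KO-labelled cells, at 14.9% and 14.8% in round and 17.2% and 17.7% in elongating cells. Reads that fit both members of a close pair may have been split or dropped by the counting, so these shares carry that uncertainty.

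**Figure D3:**
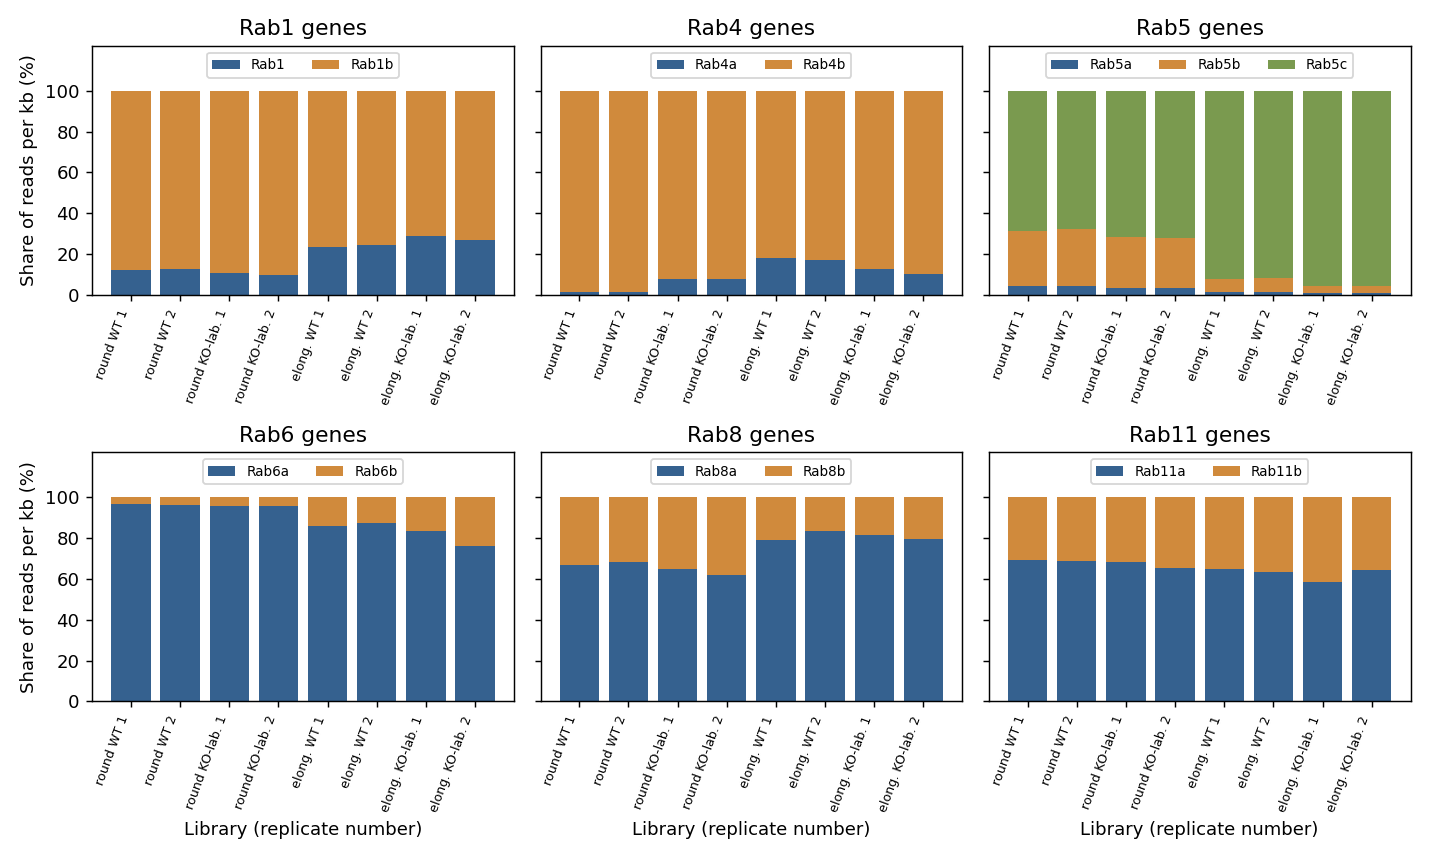
Share of reads per kb (%) that each paralogue supplied to its family in each of the 8 libraries, for the Rab1, Rab4, Rab5, Rab6, Rab8 and Rab11 genes. Rab5c grows from 67.7% to 72.4% in the round libraries to 91.9% to 95.7% in the elongating libraries, and Rab1 takes a larger share of its pair there.

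In round spermatids, KO-labelled cells held more Rab4a, Rab27a, Rab31 and Rab1b and less Rab12, Rab23 and Rab2b than WT. Over all genes 32.0% changed (19.4% rose and 12.6% fell). Of the 54 Rab genes tested, 17 changed, or 31.5%, near that background, with 12 risen and 5 fallen and a median log2 difference of 0.04. Of the changes, 2 rises and 2 falls exceeded 2-fold. The share of all genes beyond 2-fold was not counted, so this is not read as particular to Rab genes. Carm1 fell by 0.41 on the log2 scale in these libraries, so only its direction follows its label here. It still read 1174 and 1343 normalised counts in KO-labelled against 1649 and 1686 in WT libraries. Over the same libraries elongating spermatid markers rose 6 of 7, macrophage markers rose 6 of 11 and Sertoli markers fell 7 of 12. Their part in the results for round cells was not tested. With total-read scaling 7 Rab genes rose and 9 fell, beside 14.0% and 19.5% of all genes. Without round WT replicate 1, round WT replicate 2 or round KO replicate 2, 3 in place of 5 Rab genes fell.

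Rab4a had the largest fitted rise of the round cells, from 3.82 and 3.03 in WT to 25.4 and 25.4 in KO-labelled libraries (log2 difference 2.58, SE 0.27, adjusted p = 5.1e-06). Rab27a (chr9:73044854-73097629, plus strand, GRCm38), known for the docking of lysosome-related organelles, went from 146 and 145 to 213 and 206 (log2 difference 0.52, SE 0.10, adjusted p = 0.00079). Rab31 went from 222 and 213 to 317 and 286 (log2 difference 0.47, SE 0.08, adjusted p = 0.00037). Both KO-labelled libraries lay above both WT libraries in each of these genes, which the rule for naming the largest rises required. Rab1b went from 1127 and 1058 to 1324 and 1424 (log2 difference 0.33, SE 0.06, adjusted p = 0.0011). Rab7b went from 0 reads over both WT libraries to 9 over both KO-labelled ones. With the 0 reads set to the floor of 3 it was 2.89-fold higher. For the reads as counted, the 95% interval starts at 1.90-fold and covers counting error only. Its fitted difference missed the threshold at a pseudocount of 5 (adjusted p = 0.07). Macrophage markers rose in 6 of 11 genes over the same comparison, and their part in the result was not tested. The RNA Rab11fip4os2 went from 63.6 and 69 to 96 and 96.3 (log2 difference 0.53, SE 0.14, adjusted p = 0.0099), and lost its call without round WT replicate 1 (adjusted p = 0.082), round KO replicate 1 (0.054) or round KO replicate 2 (0.059).

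The other 6 rises were smaller, between 0.16 and 0.30 on the log2 scale. They were Rab3il1, Rab11fip5, Rab11fip4, Rab5c, and, outside the naming rule and chosen after their values were seen, Rab4b and Rab11b. Rab3il1 went from 4707 and 4727 to 5180.0 and 5655 (log2 difference 0.20, SE 0.04, adjusted p = 0.00074), and Rab11fip5 from 6044 and 6008 to 6611 and 6941 (log2 difference 0.17, SE 0.03, adjusted p = 0.00079). With total-read scaling 5 of the 6 missed the threshold, at adjusted p = 0.058 for Rab11fip5, 0.34 for Rab5c, 0.1 for Rab11fip4, 0.14 for Rab4b and 0.11 for Rab11b. Rab5c went from 638 and 656 to 719 and 728 (log2 difference 0.16, SE 0.05, adjusted p = 0.033) and lost its call without round WT replicate 1 (0.19), round WT replicate 2 (0.088), round KO replicate 1 (0.087) or round KO replicate 2 (0.13). Rab11fip4 (log2 difference 0.28, SE 0.09, adjusted p = 0.026) lost its call without round WT replicate 1 (0.22) or round KO replicate 1 (0.19). Rab4b (log2 difference 0.27, SE 0.09, adjusted p = 0.033) lost it without round WT replicate 2 (0.28), round KO replicate 1 (0.097) or round KO replicate 2 (0.15). Rab11b (log2 difference 0.30, SE 0.10, adjusted p = 0.035) lost it without 5 of the 8 libraries: round WT replicate 1 (0.11), round WT replicate 2 (0.17), round KO replicate 2 (0.25) and either elongating WT library (0.055 each). Of the 6, Rab3il1 and Rab11fip5 were still called without any 1 of the 8 libraries.

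The 5 falls were Rab12, Rab23, Rab2b, Rab14 and Rab8a, and all held their direction under both scalings. Rab12 read 10.2 and 11.5 in WT against 3.82 and 2.82 in KO-labelled round cells (log2 difference -1.46, SE 0.26, adjusted p = 0.00062), from few reads. Rab23 (chr1:33719887-33742564, plus strand, GRCm38) read 164 and 168 in WT against 71.2 and 68.7 in KO-labelled libraries (log2 difference -1.23, SE 0.11, adjusted p = 1e-06). Both KO-labelled libraries lay far below both WT libraries, and the rule for naming the largest falls required groups without overlap. Rab2b went from 269.8 and 283 to 165 and 158 (log2 difference -0.77, SE 0.11, adjusted p = 8.3e-05), while Rab2a read 516 and 514 in WT against 481 and 465 (log2 difference -0.12, SE 0.07, adjusted p = 0.24). Rab14 went from 346 and 341 to 283 and 282 (log2 difference -0.28, SE 0.10, adjusted p = 0.036), a call lost without round WT replicate 1 (0.17), round WT replicate 2 (0.14), round KO replicate 1 (0.13) or round KO replicate 2 (0.14). Rab8a went from 538 and 545 to 466 and 432 (log2 difference -0.27, SE 0.07, adjusted p = 0.0099), a call lost without round WT replicate 1 (0.054), round WT replicate 2 (0.073) or round KO replicate 2 (0.1). Rab23 and Rab8a made both falls of the cilium group. Rab7 (log2 difference -0.10, SE 0.08, adjusted p = 0.39) and Rab28 (log2 difference 0.12, SE 0.06, adjusted p = 0.14) did not pass in round cells.

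In elongating spermatids, KO-labelled cells held more Rab27a, Rab11fip4, Rab23, Rab22a, Rab7, Rab28 and Rab5c and less Rab42, Rab9, Rab3gap2, Rab3d and Rab6a than WT. Over all genes 55.0% changed (27.3% rose and 27.7% fell). Of the 54 Rab genes 25 changed, or 46.3%, below that background, with 14 risen and 11 fallen and a median log2 difference of -0.05. With total-read scaling 10 rose and 33 fell, beside 8.89% and 62.8% of all genes. The elongating spermatid markers rose 7 of 7 over this comparison, and macrophage markers fell 11 of 11, Sertoli markers 9 of 12 and spermatocyte markers 7 of 9. Their part in the results below was not tested. Carm1 goes against its label in these libraries.

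The rises joined endosomal, lysosomal, secretory and ciliary GTPases. Rab27a read 133 and 139.9 in WT against 347 and 371 in KO-labelled libraries (log2 difference 1.39, SE 0.10, adjusted p = 1.2e-08), the largest rise of the set. Rab23 read 149.5 and 141 in WT against 324 and 299.7 (log2 difference 1.09, SE 0.11, adjusted p = 7.5e-07), the opposite of its fall in round cells. Rab22a read 2595 and 2489 in WT against 5335 and 5392 in KO-labelled libraries (log2 difference 1.08, SE 0.04, adjusted p = 2.6e-11). Each of these 3 genes was over 2-fold higher in KO-labelled cells. Their groups did not overlap, which the rule for naming the largest rises required. Rab7 read 767 and 883 in WT against 1474 and 1406 in KO-labelled libraries (log2 difference 0.81, SE 0.08, adjusted p = 6e-07). Rab28 read 3843 and 3732 in WT against 6575 and 6385 (log2 difference 0.77, SE 0.06, adjusted p = 4.2e-08). Rab5c read 1832 and 1653 in WT against 2949.8 and 2939 (log2 difference 0.76, SE 0.05, adjusted p = 1.4e-08). All 6 rose with total-read scaling as well, by 0.19 (Rab5c) to 0.83 (Rab27a). Rab3c read 20.6 and 33.2 in WT against 46.5 and 52.8 in KO-labelled libraries (log2 difference 0.90, SE 0.31, adjusted p = 0.025), and lost its call without elongating WT replicate 1 (adjusted p = 0.19) or elongating KO replicate 2 (0.085), and with total-read scaling (0.34). Rab4b rose as well (log2 difference 0.39, SE 0.09, adjusted p = 0.0019), but stood at -0.17 with total-read scaling.

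Among regulators and effectors, Rab11fip4 read 373 and 381 in WT against 933 and 837 in KO-labelled libraries (log2 difference 1.23, SE 0.09, adjusted p = 2e-08). The RNA Rab11fip4os2 read 108 and 108 in WT against 248 and 196 (log2 difference 1.02, SE 0.14, adjusted p = 2.2e-05). It is annotated on the opposite strand within the span of Rab11fip4 (chr11:79670372-79675128 inside chr11:79591212-79698023), with no shared exon bases. The kit does not mark strand, so intron reads of Rab11fip4 could be counted for it, which was not tested. The 2 genes rose together, but their counts may not be independent. Rab3il1 read 22120.0 and 22001 in WT against 36329 and 37097 in KO-labelled libraries (log2 difference 0.73, SE 0.04, adjusted p = 2.6e-10) and kept 0.17 with total-read scaling. Rab11fip5 read 17687 and 18105 in WT against 26160.5 and 26649 (log2 difference 0.56, SE 0.03, adjusted p = 9.2e-10), and Rab3ip 2948 and 2913 in WT against 4298 and 4181 (log2 difference 0.53, SE 0.04, adjusted p = 3.4e-08). With total-read scaling those last 2 stood at -0.003 and -0.03. Rab10os read 703 and 662 in WT against 1197 and 1216 (log2 difference 0.82, SE 0.08, adjusted p = 6.7e-07).

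The falls took in late endosomal, secretory, Golgi, early endosome and recycling GTPases. Of the 11 early endosome GTPases 3 rose and 2 fell, and of the 7 recycling GTPases tested 0 rose and 1 fell. Of all genes 27.3% rose and 27.7% fell. Rab42 read 46.4 and 47.6 in WT against 23.3 and 22.6 in KO-labelled libraries (log2 difference -1.003, SE 0.21, adjusted p = 0.00089). Rab9 read 46.4 and 47.6 in WT against 34.9 and 15.1 (log2 difference -0.998, SE 0.30, adjusted p = 0.01), and the KO-labelled libraries differed between themselves by more than 2-fold. Its call was lost without elongating WT replicate 2 (adjusted p = 0.057) or elongating KO replicate 2 (0.11). Rab3d read 214 and 202 in WT against 136 and 121 in KO-labelled libraries (log2 difference -0.70, SE 0.14, adjusted p = 0.00089), so Rab3c and Rab3d were called in opposite directions. Rab6a read 249 and 261 in WT against 192 and 169.7 (log2 difference -0.50, SE 0.08, adjusted p = 9.8e-05). Rab14 read 229 and 244 in WT against 190.1 and 162 (log2 difference -0.43, SE 0.10, adjusted p = 0.0015). All KO-labelled libraries of these genes lay below the WT libraries, which the rule for naming the largest falls required of all but Rab14.

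Rab2b read 124 and 125 in WT against 93.1 and 99.9 in KO-labelled elongating libraries (log2 difference -0.37, SE 0.11, adjusted p = 0.011), a call lost by DESeq2 (0.17) and with only the 4 elongating libraries in the fit (0.071). Rab11a read 330.0 and 322 in WT against 256 and 251 (log2 difference -0.36, SE 0.07, adjusted p = 0.00042), and Rab1b 512 and 528 in WT against 392 and 426 (log2 difference -0.35, SE 0.06, adjusted p = 0.00033). Rab5b read 244 and 228 in WT against 202 and 207 (log2 difference -0.20, SE 0.08, adjusted p = 0.043), which with Rab5c made a second pair called in opposite directions. The Rab5b call was lost without any 1 of the 4 round libraries (adjusted p from 0.064 to 0.065), without elongating WT replicate 1 (0.19), without elongating KO replicate 1 (0.095), with a replicate block (0.054), by edgeR (0.1) and by DESeq2 (0.29). Rab3gap2 read 153 and 153 in WT against 98.9 and 62.2 (log2 difference -0.96, SE 0.15, adjusted p = 9.7e-05) and Rab11fip3 304 and 345 in WT against 213 and 239 (log2 difference -0.52, SE 0.09, adjusted p = 0.00026). Of the ER and Golgi group, 3 of 10 fell and 0 rose, beside 27.7% and 27.3% of all genes. The ciliary Rab8a read 857 and 937 in WT against 954 and 845 (log2 difference 0.00, SE 0.07, adjusted p = 0.98) and did not pass, nor did the Golgi GTPase Rab2a (log2 difference 0.04, SE 0.07, adjusted p = 0.7), Rab1 (log2 difference -0.07, SE 0.09, adjusted p = 0.54) or Rab5a (log2 difference -0.05, SE 0.16, adjusted p = 0.79).

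**Figure D4:**
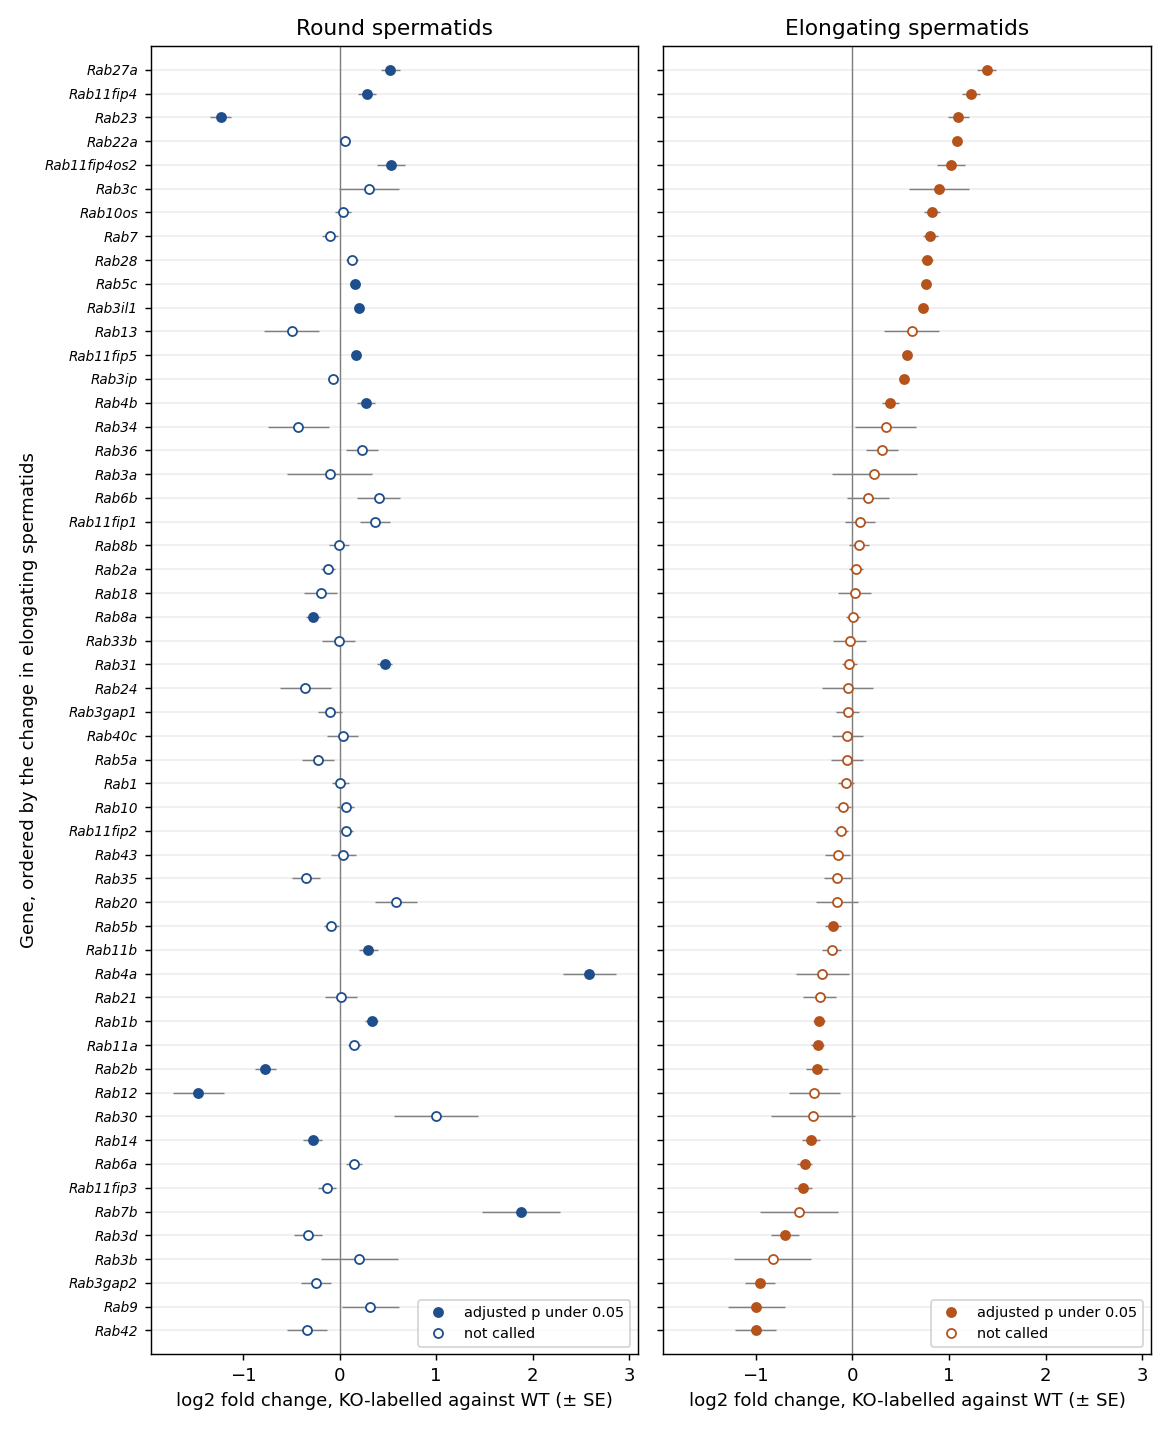
log2 difference (± SE) of KO-labelled against WT libraries for each of the 54 tested Rab genes, in round (left) and elongating (right) spermatids, ordered by the change in elongating cells. Filled points passed an adjusted p under 0.05: Rab23 lies left of 0 in round and right of 0 in elongating cells, and Rab22a, Rab7 and Rab28 were called in elongating cells. The fitted round value of Rab7b rests on 0 reads in WT.

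Whether the KO-labelled difference itself differed between the stages was tested as the elongating minus the round difference. Over all genes 36.9% passed (19.3% with a higher and 17.5% with a lower value in elongating cells), and 24 of 54 Rab genes did, or 44.4%, with 14 higher and 10 lower. Without round KO replicate 2, 6 in place of 10 were lower. Rab23 stood at the top, with KO-labelled cells below WT in round and above WT in elongating cells (log2 difference 2.33, SE 0.16, adjusted p = 3.3e-08). Rab22a (log2 difference 1.02, SE 0.06, adjusted p = 1e-08), Rab7 (log2 difference 0.91, SE 0.11, adjusted p = 1.4e-05), Rab27a (log2 difference 0.87, SE 0.14, adjusted p = 0.00014) and Rab28 (log2 difference 0.65, SE 0.09, adjusted p = 2.5e-05) had higher differences in elongating cells. The first 3 of these kept a higher value with total-read scaling, whereas Rab28 then stood at 0.18 and did not pass. Rab4a (log2 difference -2.89, SE 0.39, adjusted p = 2.8e-05), Rab7b, whose fitted value rests on 0 reads in round WT (log2 difference -2.43, SE 0.57, adjusted p = 0.0035), Rab1b (log2 difference -0.68, SE 0.09, adjusted p = 3e-05), Rab6a (log2 difference -0.64, SE 0.11, adjusted p = 0.00037) and Rab11a (log2 difference -0.51, SE 0.10, adjusted p = 0.00068) had lower differences in elongating cells. Rab1b rose in round and fell in elongating KO-labelled cells. Between the 2 labelled differences, 7 Rab genes rose in both stages (Rab27a, Rab4b, Rab5c, Rab3il1, Rab11fip4, Rab11fip4os2 and Rab11fip5), 2 fell in both (Rab14 and Rab2b), and 23 were called in neither. The matching shares over all genes were not counted. With total-read scaling the round rises of Rab4b, Rab5c, Rab11fip4 and Rab11fip5 missed the threshold. The elongating rises of Rab4b and Rab11fip5 then turned direction.

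Genes that act on Rabs but carry other names were counted from a list of 127, of which 119 were tested. In round cells 18 rose and 18 fell between WT and KO-labelled libraries (30.3% called), and in elongating cells 42 rose and 27 fell (58.0%), both near the share over all genes. The GAPs of the Tbc1d and Sgsm families counted 13 rises and 4 falls among 37 in elongating cells (45.9% called), and the GEFs 11 and 14 among 38 (65.8%), beside 55.0% over all genes. With total-read scaling these were 5 rises and 24 falls for the GAPs, and 0 and 27 for the GEFs. The largest falls in round cells were of GEFs: Dennd3, an exchange factor for Rab12, went from 167 and 176 to 52.8 and 55.2 (log2 difference -1.65, SE 0.19, adjusted p = 1.5e-05), and Rin2, of the Rab5 group, from 214 and 211 to 76.3 and 81.7 (log2 difference -1.42, SE 0.14, adjusted p = 2.6e-06). Rin3, a relative at few reads (log2 difference -1.58, SE 0.49, adjusted p = 0.022), and Tbc1d7 (log2 difference -1.06, SE 0.17, adjusted p = 0.00026) fell as well. Rab12 and its exchange factor were thus both lower in round KO-labelled cells. The largest rises in round cells were Sytl1 (log2 difference 1.47, SE 0.44, adjusted p = 0.02) and Sytl5 (log2 difference 0.67, SE 0.14, adjusted p = 0.0018), both Rab27 effectors, Exoc6 of the exocyst (log2 difference 0.59, SE 0.21, adjusted p = 0.046) and the GAP Tbc1d25 (log2 difference 0.51, SE 0.09, adjusted p = 0.00047). Sytl1 had only 5 reads over both round WT libraries.

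In elongating cells, Sytl1 went from 2 WT reads to 58 KO-labelled reads, which after scaling is a ratio of 40.7 (95% interval 10.8 to 344, counting error only). Sytl5 went from 106 and 133 to 421 and 354 (log2 difference 1.70, SE 0.14, adjusted p = 6.6e-08). These 2 Rab27 effectors rose in the same libraries as Rab27a. They were named for the size of their rise, and most other Rab27 effectors on the list are not reported here. Micall1, an effector of Rab8 and Rab35 on recycling tubules, went from 2561 and 2639 to 14949 and 15457 (log2 difference 2.55, SE 0.04, adjusted p = 3.4e-15), and Rph3a (rabphilin), an effector of Rab3 and Rab27, from 64.5 and 63.4 to 289 and 294 (log2 difference 2.17, SE 0.20, adjusted p = 3.4e-07). All 4 kept their rise with total-read scaling. The largest falls were Hps1, a subunit of the Rab32 and Rab38 exchange factor (log2 difference -2.18, SE 0.59, adjusted p = 0.0061), Dennd3 (log2 difference -1.80, SE 0.19, adjusted p = 1.6e-06), Dennd2c (log2 difference -1.46, SE 0.27, adjusted p = 0.00027) and the GAP Tbc1d30 (log2 difference -1.37, SE 0.28, adjusted p = 0.0007).

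Rab15, Rab26 and the RNA Rab26os were too low to be tested. In round cells Rab15 read 10.8 and 6.66 normalised counts for WT against 3.82 and 3.38 for KO-labelled libraries, and in elongating cells 2.58 and 2.88 against 0 and 1.89. Rab26 read 6.36 and 6.05 in round WT libraries against 6.36 and 7.89 in round KO-labelled ones, and no read in elongating WT libraries against 3.88 and 0 in elongating KO-labelled ones. Rab26os read 1.27 and 1.21 against 2.54 and 5.63 in round cells, and no read against 1.94 and 7.54 in elongating cells. The 10 tested members not named above by the rule (Rab18, Rab20, Rab24, Rab30, Rab35, Rab36, Rab40c, Rab43, Rab11fip1 and Rab3gap1) were called in neither KO-labelled comparison. Rab24 shares 62.4% of its exon length with Prelid1, so its count is uncertain.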

How the data were processed

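Poly A RNA libraries were made with a TruSeq v2 kit, which does not mark strand, per the labels' protocols. The submitters' processing notes list DESeq 1.16.0, HTSeq 0.6.0, TopHat2 2.0.10 and CASAVA 1.8.2, and the builds mm10 and GRCm38. No source used here gives their settings, the strand of counting or the annotation. The authors deposited 1 normalized signal per gene and library. Dividing the values of a library by the lowest one above 0 returned whole reads for 100% of them (tolerance 1e-06), and precision therefore follows the depth of 17190962 to 23526694 reads per library.

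Because these are normalized values, the main test was limma 3.58.1 (R 4.3.3) with a trended empirical Bayes fit on log2(value + 1), which understates changes of low genes. Genes that reached a value of 10 in 2 or more libraries entered (15685, of which 54 Rab genes). All 8 libraries shared 1 model of 4 group means, which left 4 residual degrees of freedom. P-values are two-sided and Benjamini-Hochberg adjusted over all tested genes, and rose or fell means an adjusted p under 0.05. Alternatives were other pseudocounts, filters and scalings, edgeR 4.0.16 and DESeq2 1.42.0 on the recovered reads, a replicate block, each library left out, and only the 4 libraries compared. The fit was tested on simulated data.

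Named members were those with the 6 largest rises and falls per KO-labelled comparison and the 8 per stage comparison in WT (called, groups not overlapping), the 8 highest levels per kb of round WT and of elongating WT, 16 with textbook roles, and paralogues called in opposite directions. The members and lists were chosen with earlier results of these data known. Exon lengths and overlaps came from GENCODE M21 (GRCm38), with Rab1 matched to Rab1a through a RefSeq synonym, and promoters from RefSeq (GRCm38.p6) for 48 genes. Replicate numbers did not pair the libraries: replicate differences correlated at -0.0148 to 0.0312 between groups across genes. The libraries of a group differed by more than sampling noise (chi-square of 1.39 to 2.39 per gene) and counted as 2 samples. Rab27b, a textbook member, and protein sequences were not analysed here.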

Additional observations from a re-analysis of the deposited data

Results flagged for a closer look

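For 24 Rab genes the KO-labelled minus WT difference was not the same in the 2 stages, by the limma test of the difference itself (elongating minus round, log2 scale, adjusted p under 0.05). With scaling to total reads, 6 Rab genes were higher and 26 lower. The share over all genes was not counted for that scaling, so this split cannot be set against the background. Among the ciliary GTPases, Rab23 had 2.33, Rab28 0.65 and Rab8a 0.27. The endosomal and lysosomal GTPases Rab22a (1.02), Rab7 (0.91) and Rab5c (0.6) had higher differences in elongating cells, and Rab31 (-0.5), Rab4a (-2.89), Rab7b (-2.43) and Rab9 (-1.31) had lower ones. Rab27a, of regulated secretion, had 0.87. Of the recycling GTPases, Rab12 had 1.07, Rab13 1.11, Rab11a -0.51 and Rab11b -0.51. The Golgi GTPases Rab1b (-0.68) and Rab6a (-0.64) had lower differences in elongating cells. Regulators and effectors were Rab11fip4 (0.94), Rab3ip (0.6), Rab3il1 (0.54), Rab11fip5 (0.39), Rab11fip3 (-0.38) and Rab3gap2 (-0.71), and the RNA Rab10os had 0.79. Rab8a and Rab11fip5 turned direction with total-read scaling, to -0.20 and -0.08, and did not pass (adjusted p 0.1 and 0.13). Rab8a was the least firm of these: its adjusted p was 0.053 at a pseudocount of 0.5, 0.082 by DESeq2, and 0.11 to 0.18 without 1 of 5 libraries (round WT replicates 1 and 2, round KO replicate 2, elongating WT replicate 1, elongating KO replicate 1). Rab11fip3 lost its call without 1 of 6 libraries (both replicates of round WT and of round KO, elongating WT replicate 2, elongating KO replicate 1), at adjusted p from 0.071 to 0.13. Rab12 lost it without round WT replicates 1 or 2, round KO replicate 2, either elongating WT library or elongating KO replicate 1 (0.058 to 0.1). Rab13 lost it without round WT replicates 1 or 2, round KO replicate 2, elongating WT replicate 2 or elongating KO replicate 1 (0.073 to 0.18). Rab3gap2 lost it without round WT replicates 1 or 2, round KO replicate 2 or either elongating WT library (0.054 to 0.08). Rab9 lost it without any round library or either elongating WT library (0.052 to 0.09), and Rab11b without round KO replicate 2 (0.061).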

How the results depend on the processing

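For the named members, directions turned only under other scalings of the libraries, and calls were also lost under other choices. With total-read scaling, and in brackets with library sizes that leave out the 50 most abundant genes, 7 (7) Rab genes rose and 9 (9) fell in round KO-labelled cells and 33 (33) fell in elongating KO-labelled cells. Of all genes 14.0% (14.0%) rose and 19.5% (19.1%) fell in round, and 62.8% (59.2%) fell in elongating KO-labelled cells. The difference between the stages was higher for 6 (8) and lower for 26 (22). Its share over all genes was not counted for these scalings. Between the stages 12 (16) rose and 34 (31) fell in WT, and 9 (13) rose and 37 (34) fell in KO-labelled cells. With total-read scaling 19.6% of all genes rose and 68.8% fell in WT, and 16.7% and 72.8% in KO-labelled cells. The matching shares for the counts in brackets were not counted. Of 2556 alternative values for 144 called differences of named members, 2353 kept direction and call, 165 kept direction only (128 of them outside these scalings), and 38 turned direction, with 0 of those outside these scalings.

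On the log2 scale, the turned values were as follows, with the scaling that leaves out the 50 genes in brackets. Between the stages in WT, they were Rab11fip4 -0.162, Rab11fip4os2 -0.751 (-0.354), Rab31 -0.137, Rab3ip -0.662 (-0.26), Rab5c -0.04, Rab6b -0.613 (-0.221) and Rab8a -0.739 (-0.338). Between the stages in KO-labelled cells, they were Rab11fip4os2 -0.738 (-0.279), Rab13 -0.384, Rab27a -1.16 (-0.7), Rab31 -1.111 (-0.65), Rab34 -0.367, Rab3d -0.432, Rab3ip -0.534 (-0.072), Rab4a -1.084 (-0.638), Rab4b -1.733 (-1.272), Rab6b -1.323 (-0.872) and Rab8a -0.938 (-0.477). For KO-labelled against WT in elongating cells they were Rab11fip5 -0.003, Rab3ip -0.031 and Rab4b -0.169 (-0.106). For the difference between the stages they were Rab11fip5 -0.082 (-0.021) and Rab8a -0.2 (-0.14).

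Leaving out 1 library at a time gave 3 to 6 falls in round KO-labelled cells and 6 to 12 lower values for the difference between the stages. By edgeR 16 Rab genes rose and 7 fell in round and 14 and 11 in elongating KO-labelled cells. By DESeq2 the counts were 9 and 4, and 13 and 8. For left-out libraries, edgeR, DESeq2 and the replicate block below, shares over all genes were not counted. These counts therefore cannot be set against the background. The labels' replicate numbers are shared by number alone. With them as a replicate block, 12 rose and 5 fell in round and 14 and 10 in elongating KO-labelled cells, 13 and 10 for the difference between the stages, 26 and 17 between the stages in WT and 29 and 20 in KO-labelled cells. Among the tested members, depth limits Rab3a, Rab3b, Rab3c, Rab4a, Rab7b, Rab12, Rab30 and Rab34 in round cells, where all their values were under 30 normalised counts.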
